A study of Cucumis sativus var. sativus with 11 samples.

Results

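The inhibited ovaries of the cucumber (Cucumis sativus) line Elem Female were compared with ovaries of the same line at anthesis, the opening of the flower. The 5 libraries were taken by their labels from the 11 of the series. Inhibited ovaries (n = 2) were sampled 1 day after they had been pollinated on plants that already carried older fruits. Anthesis ovaries (n = 3) were sampled on the day of flowering. The groups thus differ in age, in pollination and in the presence of older fruits, and these 3 differences cannot be told apart in this comparison. Pollinated ovaries (n = 3) and unpollinated ovaries (n = 3), both at 1 day and neither described as having older fruits nearby, served to place the inhibited ovaries. Elem Female is gynoecious, which means that it bears female flowers, and non-parthenocarpic, which means that its fruits do not set without pollination. All 4 groups share this 1 genotype, were grown in a net-house and were sampled at about the same hour of the morning, and pollen came from a separate pollinator genotype. Plants were 1 month old, and every library represents a single ovary. The labels do not say whether ovaries were taken from different plants, and p-values therefore cover the variation among these ovaries only.

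At anthesis a cucumber ovary pauses in growth. Pollen tubes and fertilization normally release this arrest through plant hormones, above all auxin and gibberellin, and a phase of rapid cell division follows; without pollination the ovary senesces. Fruits that are already growing on the vine can prevent the set of younger ovaries, which is known as first-fruit dominance. The comparison asks how far an ovary that received pollen under such dominance still has the RNA levels of anthesis.

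The inhibited libraries held 23576144 and 18158218 reads assigned to genes, and the anthesis libraries between 25508373 and 25589144. Of the 23248 identifiers in the count table, 0 matched the gene table of the assembly Cucumber_9930_V3, so genes are given by identifier, no role is stated for any of them, and the tissue was not checked against marker genes. Inhibited replicate 2 stood apart in reads that were assigned to no single gene, with 24.8% of its reads, against 11.8% in inhibited replicate 1 and 10.8 to 13.3% in anthesis libraries. Both inhibited libraries carried 1 form of the second index, the short tag that identifies a library in sequencing, and all 3 anthesis libraries carried the other, so that the index and the group cannot be told apart within this comparison. Anthesis replicate 3 was sequenced on lane 2, and the other 4 libraries on lane 3. Among 14447 genes with a mean of at least 5 CPM (read counts scaled to a common library size), the 2 inhibited libraries lay 2-fold or more apart in 79 genes and pairs of anthesis libraries in 18 to 79, while pairs of 1 inhibited and 1 anthesis library lay that far apart in 150 to 302 genes. In RNA from a whole ovary, fewer cells of a type and less RNA per cell cannot be told apart.

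Most genes were close to their anthesis level in inhibited ovaries, relative to the other genes of the same library. The scaling between libraries assumes that most genes do not change, so a shift shared by most genes would not be seen. Of 18679 genes tested, 748 were higher and 628 lower, together 1376 or 7.37% (4.0% higher, 3.36% lower), by the quasi-likelihood test of edgeR at a p under 0.05 after Benjamini-Hochberg adjustment. Only 155 of them were 2-fold or more higher and 94 were 2-fold or more lower (0.830% and 0.503% of the genes tested). The median size of a called log2 fold change was 0.51. For 15096 genes, 80.8% of those tested, the 95% interval of the log2 fold change lay inside -1 to 1, so that a change of 2-fold or more fell outside the interval. Another 3440 genes (18.4%) had an interval that crossed a 2-fold limit, and for these the data do not settle whether the level was held. Only 100 genes had an interval wholly above 2-fold and 43 an interval wholly below it. Of the called genes themselves, 968 (70.3%) had an interval inside 2-fold.

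The count of called genes rested on single libraries. The count of genes inside 2-fold did not rest on any 1 inhibited or anthesis library. Without inhibited replicates 1 and 2 the 1376 became 414 and 861, and without anthesis replicates 1 and 3 they became 559 and 345. The 345 stand for the comparison among lane 3 libraries alone. Without unpollinated replicate 2, which enters through the shared estimate of spread, they became 900. A model that adds the second index, whose effect the unpollinated libraries alone can estimate here, called 17 genes. The number inside 2-fold stayed between 13962 and 14795 when 1 inhibited or anthesis library was left out, and was 12887 with the index term.

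**Figure D1:**
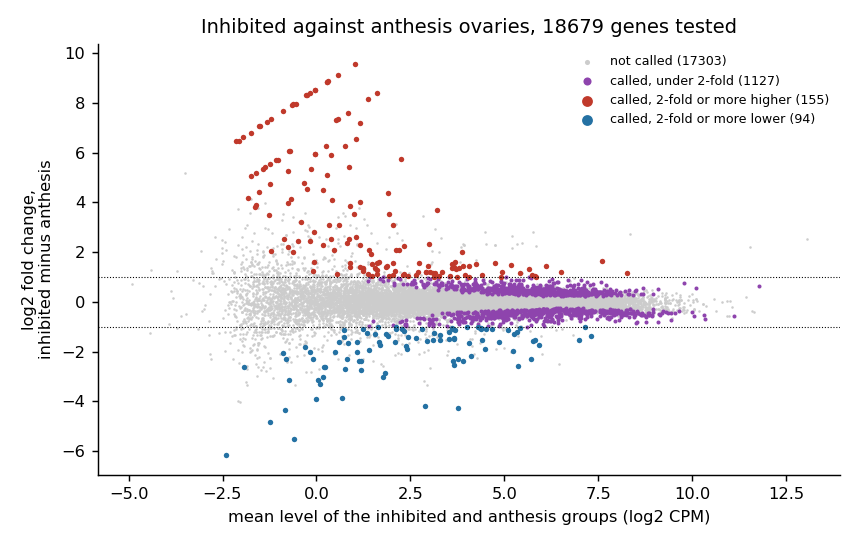
Each point is 1 of 18679 genes, with the mean level of inhibited and anthesis ovaries on the x axis (log2 CPM) and the log2 fold change of inhibited minus anthesis on the y axis; dotted lines mark 2-fold. Called genes at 2-fold or more (155 higher, 94 lower) lie mainly at low levels, and the rows of red points at the upper left are genes with few or no reads at anthesis, whose fitted fold change has no firm size.

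The share of genes shown to be inside 2-fold rose with the level of the gene, as did the precision of the measurement. The median size of the log2 fold change over all genes, called or not, was 0.16 both at 100 CPM or more and at 10 to 100 CPM. It was 0.27 at 1 to 10 CPM and 0.63 under 1 CPM. Among the 2496 genes with a mean of 100 CPM or more over the 11 libraries, 98.6% had an interval inside 2-fold, 137 were higher and 182 lower, but 2 in each direction were called at 2-fold or more. Among the 10159 genes of 10 to 100 CPM, 96.5% lay inside 2-fold. At 1 to 10 CPM the share was 61.8% of 4545 genes, with 60 genes called 2-fold or more higher and 48 lower. Under 1 CPM it was 1.28% of 1479 genes, where the median standard error of the log2 fold change was 0.65, against 0.090 at 100 CPM or more. At this level 69 genes were called higher and 15 lower, 19 had an interval inside 2-fold, and for 1377 the interval crossed a 2-fold limit. Of the 100 most abundant genes, 95 had an interval inside 2-fold, 3 were called higher and 11 lower.

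**Figure D2:**
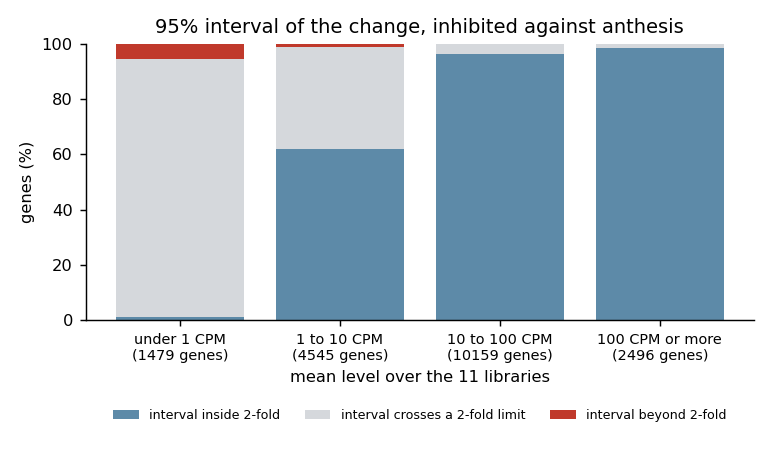
Bars give the percentage of genes, by mean level over the 11 libraries, whose 95% interval of the change in inhibited against anthesis ovaries lay inside 2-fold, crossed a 2-fold limit or lay beyond it. The share inside 2-fold was 1.28% under 1 CPM and 98.6% at 100 CPM or more.

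Pollinated and unpollinated ovaries were tested against the same anthesis libraries, and their values are given beside those of inhibited ovaries without a test of the difference between counts. Over all 3 libraries a group, 16.4% of genes were called in pollinated and 35.7% in unpollinated ovaries against anthesis. With 1 pollinated library left out in turn, so that 2 faced 3 as in the inhibited comparison, 1775 to 2022 genes were called and 591 to 628 at 2-fold or more. With 1 unpollinated library left out in turn, 4564 to 6642 were called and 641 to 1053 at 2-fold or more. The inhibited group had 1376 and 249 in the fit of all 11 libraries. In the reduced fits it had 1050 to 1639 genes called without 1 pollinated library, and 900 to 1492 without 1 unpollinated library. The share inside 2-fold of anthesis was 80.8% for inhibited ovaries, beside 80.9% for all 3 pollinated and 77.6% for all 3 unpollinated libraries. With 2 libraries it was 78.8 to 79.5% for pollinated and 73.8 to 76.3% for unpollinated ovaries. Inside 1.5-fold, over all libraries, it was 58.6% for inhibited, 62.1% for pollinated and 51.6% for unpollinated ovaries. Pollinated ovaries were thus inside 2-fold of anthesis about as often as inhibited ones.

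The genes that rose furthest in inhibited ovaries were scarcely read at anthesis. Csa4G267480 had 7.60 and 4.63 CPM in inhibited replicates 1 and 2, against 0, 0.0383 and 0 CPM in anthesis replicates 1 to 3. Its anthesis value is a single read, and the ratio of summed reads, scaled to the summed library sizes of each group, was 490.9, and counting error alone gave it an exact 95% range of 87.4 to 19459. Its edgeR adjusted p was 0.000239. Pollinated ovaries, at 0.805, 1.78 and 0.539 CPM, lay between inhibited and anthesis ovaries, and unpollinated ovaries had 0, 0 and 0.0435 CPM. Both inhibited libraries were above all other 9 libraries of the series, and the gene was 5.85-fold higher in inhibited than in pollinated ovaries (log2 fold change 2.55 ± 0.48 SE, edgeR adjusted p = 0.00545).

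Csa5G054060 had 6.91 and 3.39 CPM in inhibited ovaries, against 0, 0 and 0.0395 CPM at anthesis. The ratio of summed reads, scaled likewise, was 420.0, with an exact 95% range of 74.6 to 16658 from counting error, and its edgeR adjusted p was 0.00216. Pollinated libraries had 1.02, 1.16 and 0.0385 CPM and unpollinated libraries 0, 0.0814 and 0.0435 CPM, so that inhibited replicate 2 was again above every library of the other groups. Its log2 fold change of inhibited minus pollinated ovaries was 2.83 ± 0.70 SE (edgeR adjusted p = 0.0212). Both genes stayed called against anthesis without any 1 of the 5 libraries, with edgeR adjusted p of at most 0.0228. With the index term neither was called (edgeR adjusted p of at least 0.998), at log2 fold changes of 6.09 for Csa4G267480 and 4.47 for Csa5G054060.

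**Figure D3:**
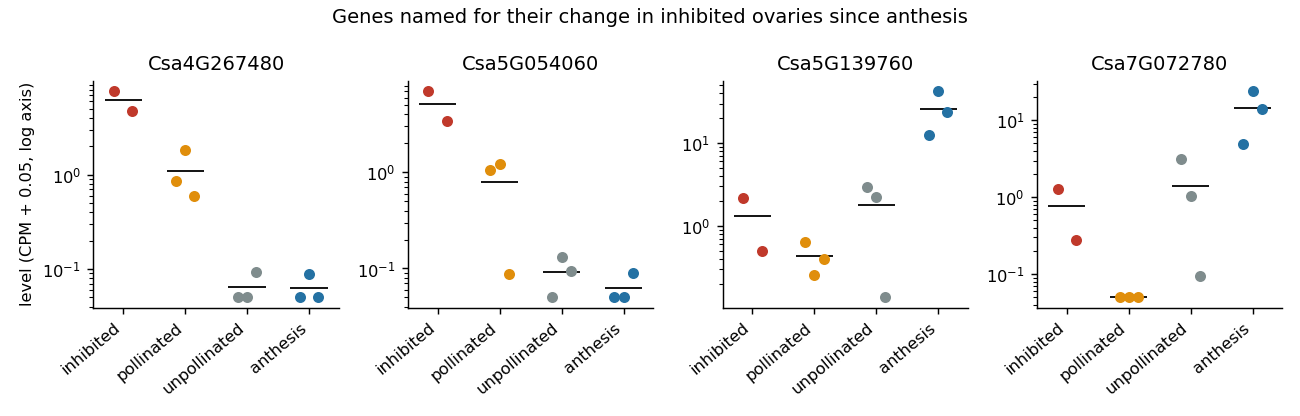
Each point is 1 ovary and each bar a group mean, in CPM plus 0.05 on a log axis, for the 2 genes named per direction. The first pair is above 3 CPM in both inhibited ovaries and under 0.1 CPM in all anthesis ovaries; the second pair is above 4 CPM in all anthesis ovaries and under 2.5 CPM in both inhibited ovaries.

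Over the 155 genes that rose 2-fold or more, the median ratio of inhibited to anthesis levels was 5.31, with the 22 genes that had no read at anthesis set to a floor of 3 reads over the group. Another 28 of the 155 had 1 to 3 reads over the 3 anthesis libraries, and 69 had a mean under 1 CPM over the series. Together the 155 genes took 0.251 and 0.212% of the reads in inhibited libraries, against 0.0835 to 0.0902% in anthesis libraries. Inhibited replicate 1 was above replicate 2 in 122 of them (78.7%, against 48.7% of all genes tested). Without inhibited replicate 1 the 155 became 72, and without anthesis replicate 3 they became 88. In the whole table, 17 genes had no read in any anthesis library and 10 or more reads in each inhibited library. Their reads ran from 10 to 115 in inhibited replicate 1 and from 10 to 61 in replicate 2. Each of the 17 had reads in pollinated ovaries, with at most 22 in a library, while 10 of them had none in unpollinated ovaries.

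The genes that fell furthest were also low in the other groups at 1 day. Csa5G139760 had 2.10 and 0.452 CPM in inhibited ovaries, against 12.4, 42.1 and 23.4 CPM at anthesis. The groups did not overlap, which the choice of named genes required. Among all 18679 genes tested, both inhibited libraries lay below all anthesis libraries in 4053. The log2 fold change of Csa5G139760 was -4.25 ± 0.80 SE, with an edgeR adjusted p of 0.0127. Pollinated libraries had 0.590, 0.207 and 0.347 CPM and unpollinated libraries 2.89, 2.20 and 0.0871 CPM, all below the lowest anthesis library. The difference of inhibited minus unpollinated ovaries was -0.34 on the log2 scale, with a 95% interval from -2.19 to 1.51, which leaves room for a difference of more than 2-fold in either direction.

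Csa7G072780 had 1.21 and 0.226 CPM in inhibited ovaries, against 4.92, 23.7 and 14.0 CPM at anthesis (log2 fold change -4.20 ± 1.04 SE, edgeR adjusted p = 0.0390). It had 0 reads in all 3 pollinated libraries, and 3.07, 0.977 and 0.0435 CPM in unpollinated libraries. Inhibited ovaries thus kept 34 reads of a gene that was not read in pollinated ovaries, but its difference between these groups was not called (edgeR adjusted p = 0.137). This gene was close to the threshold: it was no longer called without inhibited replicate 1 or 2 or anthesis replicate 2 or 3 (edgeR adjusted p = 0.0980, 0.15, 0.0791 and 0.101), at log2 fold changes of -5.96, -3.55, -3.62 and -4.22. Csa5G139760 was no longer called without inhibited replicate 2 (edgeR adjusted p = 0.0564), and its log2 fold change was -5.85 without inhibited replicate 1. With the index term neither gene was called, at a log2 fold change of -2.94 for Csa5G139760 and -1.64 for Csa7G072780 (edgeR adjusted p = 0.634 and 0.835).

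The 94 genes that fell 2-fold or more had a median ratio of anthesis to inhibited levels of 3.12, with the 1 gene without reads in inhibited ovaries at the same floor. They took 0.0842 and 0.0712% of the reads in inhibited libraries, against 0.171 to 0.283% in anthesis libraries. Anthesis replicate 2 was the highest anthesis library in 72 of the 94, and also in 81 of the 155 higher genes. Its share over all genes was not counted. The count became 24 and 45 without inhibited replicates 1 and 2, and 39 and 33 without anthesis replicates 2 and 3.

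The 2 sets of genes differed in where the other groups at 1 day lay. The genes were chosen on inhibited and anthesis libraries, so the distances of those groups are a description. The anthesis mean is also the baseline for pollinated and unpollinated libraries, so the choice bears on their distances too. The 155 higher genes had medians of 2.29 and 1.82 in inhibited replicates 1 and 2 (log2 CPM minus the anthesis mean), against 0.50 to 0.96 in pollinated and 0.34 to 0.53 in unpollinated libraries. Against pollinated ovaries, 105 of these genes were called higher in inhibited ovaries and 2 lower, where 6.54% and 4.81% of all genes were. Against unpollinated ovaries, 95 were called higher and 6 lower, where 9.81% and 9.83% of all genes were. The 94 lower genes had medians of -1.56 and -1.61 in inhibited libraries, -1.56 to -1.37 in pollinated and -1.73 to -0.84 in unpollinated libraries. Against pollinated ovaries, 22 of these were called lower in inhibited ovaries and 5 higher. Against unpollinated ovaries, 21 were called lower, and the other 73 were not called. The inhibited libraries that chose the genes enter these calls too, and nothing is read from them.

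**Figure D4:**
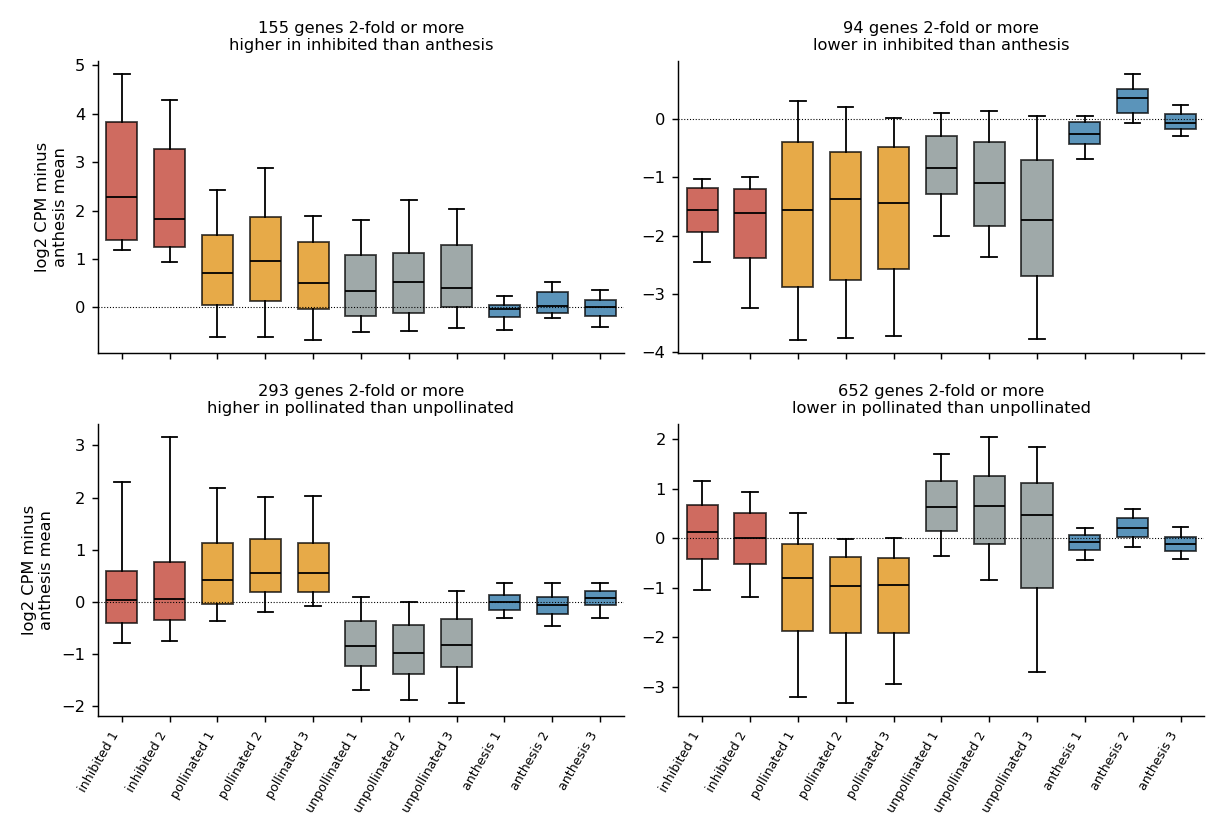
Boxes show, for each library, the quartiles and median of log2 CPM minus the anthesis mean over a set of genes, with whiskers at the 10th and 90th percentiles. In the upper panels, the medians of the 94 lower genes are low in all groups at 1 day, and those of the 155 higher genes are highest in inhibited libraries. Of the 94, 13 were above anthesis in pollinated and 13 in unpollinated ovaries. Both sets were chosen on inhibited and anthesis libraries, and the anthesis mean is the baseline of every group, so the choice bears on both orders. In the lower panels, chosen on the difference between pollinated and unpollinated libraries, inhibited medians lie at 0.01 to 0.13, near those of anthesis.

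Genes that respond to pollination were then read in the inhibited and anthesis libraries, which were not on either side of the comparison that chose them. All 11 libraries share the filter, the scaling and the estimate of spread. The calls of the 2 comparisons are therefore not fully independent. These were the genes called and 2-fold or more apart between pollinated and unpollinated ovaries, 293 higher (1.57% of the genes tested) and 652 lower (3.49%). On the 293 genes that pollination raised relative to no pollination, inhibited libraries had medians of 0.03 and 0.05 (log2 CPM minus the anthesis mean), against -0.05 to 0.07 in anthesis libraries. The same genes lay at 0.41 to 0.55 in pollinated and at -0.98 to -0.83 in unpollinated libraries. On the 652 genes that were lower with pollination, inhibited libraries had medians of 0.13 and 0.01, pollinated libraries of -0.96 to -0.79, unpollinated libraries of 0.48 to 0.65 and anthesis libraries of -0.11 to 0.21. On both sets the median inhibited ovary value was therefore within the range of the anthesis libraries. Pollinated and unpollinated ovaries lay on opposite sides of that range, but the choice of the genes had set these 2 groups apart. The median fitted log2 fold change of inhibited minus anthesis was 0.05 and 0.09 on these sets and 0.001 over all genes tested. With the index term the medians were -0.12 and 0.38, and without unpollinated replicate 3 they were 0.19 and -0.02.

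The median stands for the sets and not for each gene. An interval inside 2-fold of anthesis was found for 120 of the 293 (41.0%) and 206 of the 652 (31.6%), beside 80.8% of all genes, and single genes did leave the anthesis level. Of the 293, 46 were called higher in inhibited ovaries than at anthesis, 15.7% beside 4.0% of all genes, and 10 were called lower, 3.41% beside 3.36%. The filter by group could admit a gene through its level in the 2 inhibited libraries alone. Of the 46, 23 had a mean under 1 CPM over the series, so the 15.7% is a description and nothing is read from it. Of the 652, 54 were called higher, 8.28% beside 4.0%, and 18 lower, 2.76% beside 3.36%. In all, 64 genes moved in the direction of the pollination response and 64 against it. The sum of 128 was 55 without inhibited replicate 1, 82 and 68 without anthesis replicates 1 and 3, 216 without unpollinated replicate 3. The index term left 6. Under each of these settings the response genes were chosen anew, so the counts are not subsets of one another. The count with the response was 145 without unpollinated replicate 3, 35 and 38 without inhibited replicates 1 and 2, 42 without anthesis replicate 3, 41 without pollinated replicate 2 and 42 without unpollinated replicate 2. The count against it was 20 without inhibited replicate 1, 36 and 26 without anthesis replicates 1 and 3, and 103 without pollinated replicate 1.

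The 46 genes that were higher both with pollination and in inhibited ovaries included many with few reads at anthesis and without pollination. For 20 of the 46, no more than 3 reads were counted over the 3 anthesis libraries and no more than 3 over the 3 unpollinated libraries. The median level over all 46 was 3.90 and 2.91 CPM in inhibited replicates 1 and 2 and 0.54 to 1.14 CPM in pollinated libraries, against 0.044 to 0.081 CPM in unpollinated libraries and 0.077 to 0.079 CPM in anthesis libraries. Of the 46, 22 were also called higher in inhibited ovaries than in pollinated ones. The inhibited libraries took part in choosing the 46, so this count and these levels are a description. Inhibited replicate 1 was above replicate 2 in 35 of the 46. The 54 genes that were lower with pollination and higher in inhibited ovaries had medians of 16.1 and 10.7 CPM in inhibited, 3.6 to 4.53 CPM in pollinated, 10.7 to 12.2 CPM in unpollinated and 5.88 to 6.74 CPM in anthesis libraries.

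At any size of change, pollinated ovaries had 2799 genes higher and 2852 lower than unpollinated ovaries (15% and 15.3% of the genes tested). Those also called in inhibited ovaries against anthesis moved more often against this response than with it. Against the response means the direction in which unpollinated ovaries lie from pollinated ones. Compared with anthesis, 35.7% of genes were called in unpollinated and 16.4% in pollinated ovaries. Among the 2799, 240 were called lower in inhibited ovaries than at anthesis, 8.57% beside 3.36% of all genes, and 124 higher, 4.43% beside 4.0%. Among the 2852, 205 were called higher, 7.19% beside 4.0%, and 55 lower, 1.93% beside 3.36%. In the other direction, 38.2% of the 628 genes that fell in inhibited ovaries were among the 2799, and 27.4% of the 748 that rose were among the 2852. In total 445 genes moved against the response and 179 with it. Without inhibited replicate 1 these were 102 and 91, without anthesis replicate 1 172 and 94, without anthesis replicate 3 103 and 84, without pollinated replicate 3 292 and 117, and without unpollinated replicate 2 230 and 94. The count with the response was also 87 without inhibited replicate 2, 102 without anthesis replicate 2, 106 without pollinated replicate 2 and 286 without unpollinated replicate 3. With the index term the counts were 3 and 5. All pollinated and anthesis libraries carried 1 form of the index, and both inhibited libraries and unpollinated replicates 2 and 3 the other, and the part of the index in these counts was not tested further.

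Inhibited and pollinated ovaries, which both received pollen, differed by 2-fold or more in 603 genes, 470 higher (2.52%) and 133 lower (0.712%) in inhibited ovaries. For 167 of the 603 (27.7%), the inhibited ovaries had an interval inside 2-fold of anthesis, beside 80.8% of all genes tested. Of these 167, inhibited ovaries were above pollinated ovaries in 125 and below them in 42, beside 470 and 133 of the 603. Their count was 60 without inhibited replicate 1 and 82 with the index term. For 96 of the 603 (15.9%, beside 80.9% of all genes tested) the pollinated ovaries had an interval inside 2-fold of anthesis. Both sets held 23 of these genes. For 363 genes (60.2%) neither group was shown to be inside 2-fold of anthesis. These sets share libraries with the comparison that chose them and are given without a test.

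Csa7G420780 was held at a high level. It had 120.7 and 107.1 CPM in inhibited ovaries, against 127.5, 130.8 and 96.5 CPM at anthesis, and its log2 fold change of inhibited minus anthesis was -0.05, with a 95% interval from -0.45 to 0.34. Unpollinated libraries had 165.8, 155.8 and 141.5 CPM, while pollinated libraries had 20.1, 26.5 and 14.8 CPM. Both inhibited libraries were above all 3 pollinated ones, as the choice of named genes required. The log2 fold change between these groups was 2.48 ± 0.19 SE (edgeR adjusted p = 2.23e-05). Csa6G518270 showed the same order at a lower level, with 8.73 and 7.90 CPM in inhibited ovaries and 1.93, 1.36 and 1.19 CPM in pollinated ovaries (log2 fold change 2.49 ± 0.26 SE, edgeR adjusted p = 0.000170). It had 7.98, 4.72 and 6.57 CPM in unpollinated libraries and 9.11, 8.55 and 12.1 CPM at anthesis, and its interval of inhibited minus anthesis ran from -0.77 to 0.26.

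Csa3G218170 and Csa4G415930 were lower in inhibited than in pollinated ovaries and close to anthesis. Csa3G218170 had 9.90 and 13.4 CPM in inhibited ovaries, against 9.77, 14.4 and 9.96 CPM at anthesis, so that the groups overlapped. Pollinated libraries had 120.0, 64.9 and 117.7 CPM (log2 fold change of inhibited minus pollinated -3.12 ± 0.38 SE, edgeR adjusted p = 0.000428) and unpollinated libraries 37.8, 63.0 and 91.5 CPM. This gene was therefore also higher in unpollinated ovaries than at anthesis (log2 fold change 2.49 ± 0.31 SE, edgeR adjusted p = 0.000203), and inhibited ovaries were the only group at 1 day that overlapped with anthesis. Csa4G415930 had 3.36 and 2.26 CPM in inhibited ovaries and 12.7, 9.14 and 15.8 CPM in pollinated ovaries (log2 fold change -2.14 ± 0.41 SE, edgeR adjusted p = 0.00608). It had 2.43, 3.78 and 6.62 CPM in unpollinated libraries and 2.83, 3.53 and 1.74 CPM at anthesis, and its interval of inhibited minus anthesis ran from -0.82 to 0.96. All 4 genes stayed called between inhibited and pollinated ovaries with the index term, with an edgeR adjusted p of at most 0.0158. Csa4G415930 lost its call when the 4 libraries with over 15% of unassigned reads were left out (inhibited replicate 2, pollinated replicates 1 and 3 and unpollinated replicate 3), at a log2 fold change of -1.44 and an edgeR adjusted p of 0.114.

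**Figure D5:**
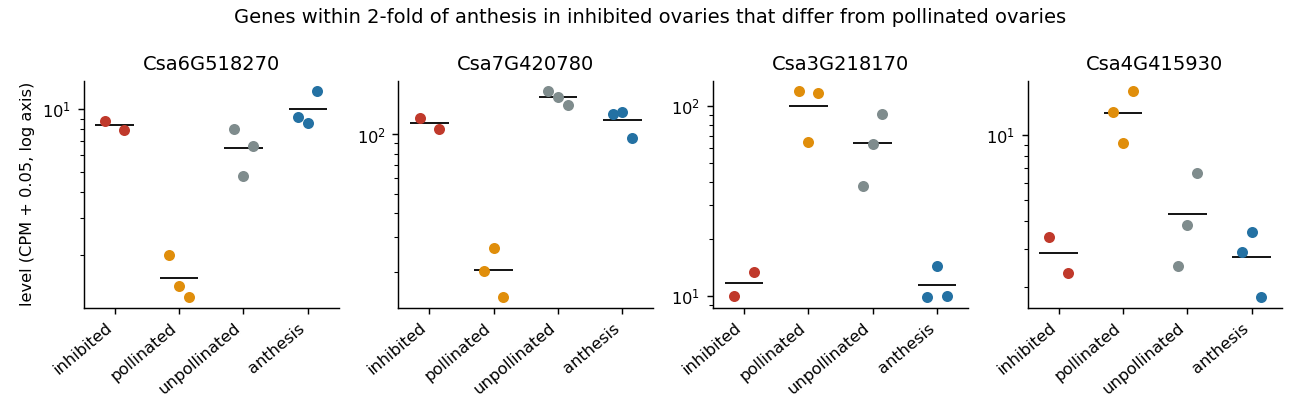
Each point is 1 ovary and each bar a group mean, in CPM plus 0.05 on a log axis, for 4 genes whose inhibited ovaries lay within 2-fold of anthesis. In each panel the inhibited points lie beside the anthesis points, and the pollinated points lie apart from both. The choice of these genes required that inhibited and pollinated points do not overlap.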

How the data were processed

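The authors deposited a table of raw read counts for 23248 genes in 11 libraries and a second table of normalized signal, in which every value equals the deposited count divided by 1 factor per library (largest relative difference 5.08e-10). The counts were used for all tests. STAR 2.5.0a, HTSeq 0.6.1p1 and DESeq2 are listed, per the submitters' processing notes, with no role for each. Genome build, annotation and use of strand: not given in the sources used here. Hence overlapping genes and near-identical copies may share reads. Another 5 lines name no gene and were left out. They hold 10.8 to 24.8% of a library's reads.

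Genes passed filterByExpr by group (18679 genes). In edgeR 4.0.16 (R 4.3.3), with TMM factors, a single quasi-likelihood fit with 4 group means covered all 11 libraries (7 residual degrees of freedom). Calls required p under 0.05 after Benjamini-Hochberg adjustment over all genes. The standard error (SE) is the log2 fold change over the root of the F statistic. The 95% interval uses the t quantile at the total degrees of freedom. Levels are CPM on TMM-adjusted library sizes, and gene sets used log2 CPM with a prior count of 2. Exact conditional binomial intervals of read ratios cover counting error only. The fit was tested on simulated data.

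Members, lists and tests were chosen with earlier results of these data known. For each direction, named genes are the 2 called genes of largest log2 fold change, given groups that do not overlap and at least 5 CPM on average in the higher group. For held genes the change is inhibited minus pollinated, among genes with an interval inside 2-fold of anthesis. The other settings, among them DESeq2 1.42.0, are given in the closing section.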

Additional observations from a re-analysis of the deposited data

How the results depend on the processing

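The 1376 genes called became 2398 with DESeq2, 863 with only the 2 groups compared, 669 with the unassigned share as a covariate, 806 without the libraries in which that share was raised (which leaves inhibited replicate 1 alone, assumed to vary like the other groups) and 17 with the index term (1444 at an unadjusted p under 0.05). They ran from 345 to 959 when 1 inhibited or anthesis library was left out, and from 900 to 1639 when 1 pollinated or unpollinated library was. The share of higher calls was 54.4%, but 88.2% with the index term, 73.2% without inhibited replicate 1 and 63.5% without anthesis replicate 3. With the index term the 249 genes at 2-fold or more became 17, the 155 higher 15 and the 94 lower 2. Leaving out 1 inhibited or anthesis library gave 96 to 190, 72 to 145 and 24 to 68. The 94 became 151 with DESeq2 and 37 with the covariate. The 128 pollination response genes became 194 with DESeq2 and 6 with the index term (55 to 216 without any 1 of the 11 libraries, with response genes chosen anew). Those with the response became 97 with DESeq2, 42 with the covariate and 3 with the index term (35 to 145), and those against it 97 and 3 with DESeq2 and the index term (20 to 103). The 167 held genes became 82 with the index term (60 to 157 without 1 inhibited, pollinated or anthesis library). The genes inside 2-fold of anthesis stayed between 12887 and 15149 under every setting in which they were counted, and between 13962 and 14795 without 1 inhibited or anthesis library. They were not counted without 1 pollinated or unpollinated library. DESeq2 gave no count that needs an interval. Median-of-ratios factors and no filter on low counts left every count of called genes within 1.5 times. No paired analysis was possible because the labels give libraries no replicate numbers. The cause of these shifts was not tested. Depth limits genes under 1 CPM, most of whose intervals cross 2-fold.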

Other observations

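The gene with the most reads in inhibited replicate 2 was Csa4G243390, singled out after its values were seen. It had 2186 and 26531 CPM in inhibited replicates 1 and 2, against 2231, 973 and 4377 CPM in anthesis replicates 1 to 3, and its difference was not called (log2 fold change 2.51 ± 1.05 SE, edgeR adjusted p = 0.149). It had 19167, 3678 and 14884 CPM in pollinated and 2845, 750 and 10457 CPM in unpollinated libraries. The 4 libraries with its highest values were the 4 in which over 15% of reads were assigned to no single gene, and whether these measures are linked was not tested. The gene with the most reads in inhibited replicate 1, Csa4G167980, was higher in inhibited ovaries, at 3619 and 4839 CPM, against 2986, 2612 and 2565 CPM at anthesis (log2 fold change 0.64 ± 0.16 SE, edgeR adjusted p = 0.0345). Pollinated libraries had 6934, 5356 and 6097 CPM and unpollinated libraries 4455, 4778 and 5104 CPM, all above every anthesis library.

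Reads were seen in both groups for 20277 of the genes in the table, in inhibited ovaries alone for 574 and in anthesis ovaries alone for 538. The highest count in a library was 115 reads among the 574 and 12 reads among the 538.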
